A study of Rattus norvegicus with 64 samples.

Results

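Neutrophil genes were followed in the wall of rat bladders that had been reconstructed with bladder acellular matrix (BAM) alone or with BAM carrying adipose tissue-derived stromal cells (ASCs). The genes were 10 markers listed by name and not by a cut on measured values, though earlier results of these data were known when they were chosen. A probe for 9 of them was found on the array, out of 15715 genes that could be named, and no probe was matched to Mpo, the myeloperoxidase gene. Each of the 9 genes had 1 probe.

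Total RNA of the whole reconstructed wall was hybridized on 64 single-color Agilent arrays, with 8 biological replicates in each of 8 groups. All recipients were male syngeneic Wistar rats that underwent hemicystectomy and received a graft of about 1 cm2, either BAM only or BAM seeded with 10000000 ASCs of the third passage, called ADSCs in the sample labels. The fat donors were male Wistar rats 10 weeks old, and the age of the recipients is not given in the sources used here. Bladders were harvested after 7, 30, 90 or 180 days. BAM is devoid of cells, so the RNA came from the host and, in the seeded grafts, also from any seeded cells still present. Unoperated bladders were not analysed here.

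Neutrophils are short-lived granulocytes that leave the blood early in wound healing and follow chemokines such as those bound by CXCR2. They release granule proteins that kill microbes and digest matrix, and much of their cytosolic protein is a pair of calcium-binding alarmins. Because most granule proteins are made in the bone marrow during maturation, the RNA of granule genes and that of receptor genes mark different stages of the same lineage. Among the genes measured were the alarmins S100a8 and S100a9, granule genes and receptor genes. The granule genes were Camp (cathelicidin), Ltf (lactoferrin), Mmp8 (neutrophil collagenase) and Elane (neutrophil elastase). The receptor genes were Csf3r, which binds the growth factor G-CSF, Cxcr2, and Fpr1, which senses formylated peptides of bacteria and mitochondria. In RNA of a whole wall, fewer cells of a type and less RNA per cell cannot be told apart.

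The stretches just upstream of 4 of these genes, 1 or more for each role, are shown because their RNA fell together in bladders reconstructed with BAM only. Each runs over the 250 bases before the transcription start, 5′ to 3′ on the strand of the gene, from RefSeq on GRCr8. Capitals mark the letters GAGGAA or their reverse complement (a core bound by PU.1, a myeloid transcription factor) and TTGCNNAA (a form of the C/EBP motif).
S100a9, chr2:178490623-178490872, minus strand: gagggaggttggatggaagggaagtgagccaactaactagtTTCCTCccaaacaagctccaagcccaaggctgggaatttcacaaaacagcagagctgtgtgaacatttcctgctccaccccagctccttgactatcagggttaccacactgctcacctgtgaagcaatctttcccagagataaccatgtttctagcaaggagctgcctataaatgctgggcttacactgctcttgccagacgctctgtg
Csf3r, chr5:143582970-143583219, plus strand: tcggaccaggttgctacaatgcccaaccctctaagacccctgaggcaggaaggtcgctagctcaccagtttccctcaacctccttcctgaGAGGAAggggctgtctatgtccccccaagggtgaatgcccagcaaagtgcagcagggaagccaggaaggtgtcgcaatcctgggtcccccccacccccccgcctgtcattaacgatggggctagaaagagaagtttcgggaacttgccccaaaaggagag
Cxcr2, chr9:83178395-83178644, plus strand: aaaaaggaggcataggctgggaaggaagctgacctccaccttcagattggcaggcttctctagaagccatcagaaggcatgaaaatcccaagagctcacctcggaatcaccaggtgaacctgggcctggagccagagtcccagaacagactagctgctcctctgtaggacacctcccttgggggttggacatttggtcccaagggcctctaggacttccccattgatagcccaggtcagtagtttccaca
Mmp8, chr8:13008640-13008889, plus strand: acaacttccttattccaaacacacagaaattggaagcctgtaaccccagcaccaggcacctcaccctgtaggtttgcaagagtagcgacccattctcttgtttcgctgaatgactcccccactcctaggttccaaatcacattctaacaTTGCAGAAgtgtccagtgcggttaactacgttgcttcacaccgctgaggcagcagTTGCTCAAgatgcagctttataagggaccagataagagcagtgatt

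RefSeq stretches were found for 8 of the 10 listed genes. GAGGAA lay on either strand in 4 of them, at 209 bases before the start in S100a9, 160 in Csf3r, 152 in Fpr1 and 135 in Mpo, and in 23.3% of all 33469 stretches of this length. TTGCNNAA lay in 1 of the 8, Mmp8, at 101 and 46 bases before the start, and in 9.22% of all stretches. These spellings were chosen after several had been tried, and a match is a description of letters and not of a bound site.

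Values are log2 levels, in which each array is centred on its own 75th percentile of log2 signal, so that a level of 0 is that percentile. A gene was called a differentially expressed gene (DEG) at a Benjamini-Hochberg adjusted p below 0.01 in limma, over 30367 probes, with a fold change above 1.5. Overlap of groups is described gene by gene, and the share of all probes without overlap was not counted. Counts at an unadjusted p below 0.05 in limma likewise stand without the share of all probes at that p, so they have no baseline. The arrays of 7 and 30 days had 73.3% to 95.6% of gene spots well above background and those of 90 and 180 days 35.5% to 64.6%. Both early days were scanned on 1 date and both late days on another, and each slide held a single group. Effects of slide therefore cannot be told apart from those of group. Over all 64 arrays, S100a8 was well above background on 49 arrays, S100a9 on 52, Camp on 42, Fpr1 on 41, Csf3r on 37, Cxcr2 on 34, Ltf on 23, Mmp8 on 20 and Elane on 3.

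**Figure D1:**
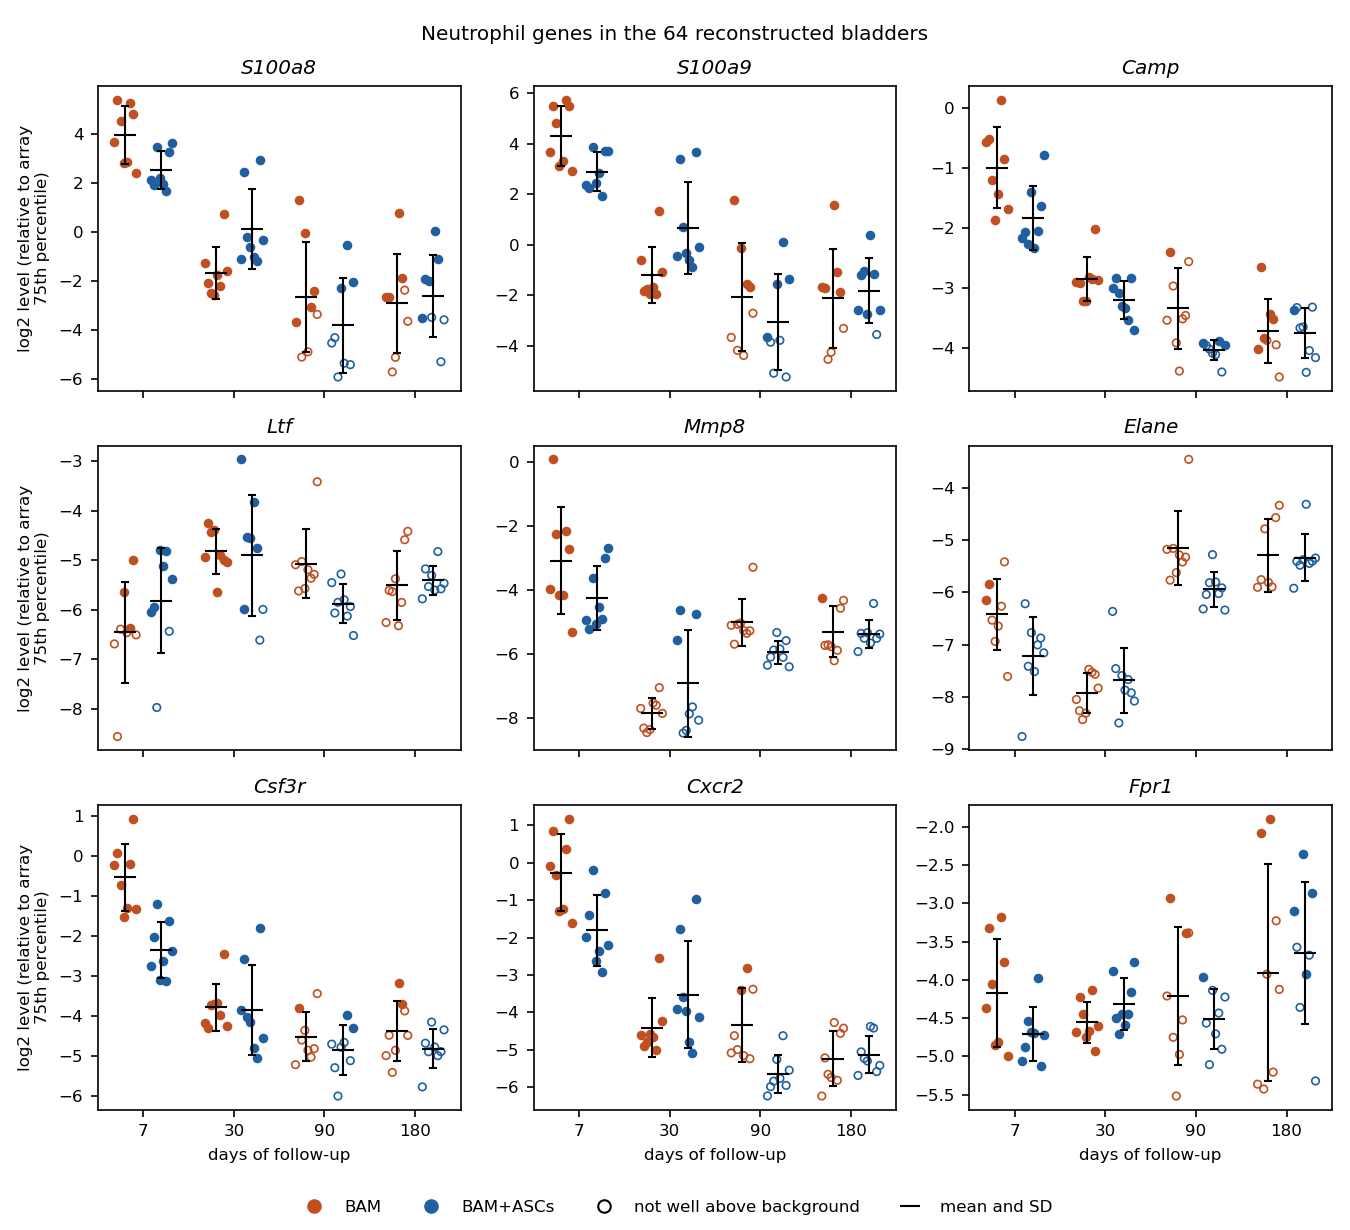
Log2 level of 9 neutrophil genes (vertical axis, relative to the 75th percentile of the array) in 64 bladders by days of follow-up (horizontal axis), for BAM only (orange) and BAM seeded with ASCs (BAM+ASCs, blue), with mean and SD of each group and open circles for arrays not well above background. S100a8, S100a9, Camp, Mmp8, Csf3r and Cxcr2 lie highest in BAM only at 7 days, and all 8 of those bladders lie above all 8 of BAM only at 30 days for each of these genes. The share of all probes that separate in this way was not counted.

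In all, 7 of the 9 genes fell between 7 and 30 days in bladders reconstructed with BAM only, 1 rose and 1 was not called. The fall was 49.2-fold for S100a8, 45.9-fold for S100a9, 17.6-fold for Cxcr2, 9.54-fold for Csf3r and 3.63-fold for Camp. S100a8 and S100a9 were saturated in replicate 2 of BAM only at 7 days, whose level is thus a lower bound, and without it their log2 differences were -5.42 and -5.35. Of all probes tested 8.65% were called in this comparison, 4.21% lower and 4.44% higher at 30 days. The median difference over the 9 genes was -3.25 on the log2 scale, beside -0.06 over all probes.

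S100a8 and S100a9 encode the subunits of calprotectin. In BAM only at 7 days, S100a9 levels ran from 2.91 over a median of 4.26 to 5.74, and at 30 days from -1.96 over -1.73 to 1.32. The groups did not overlap, and the log2 difference was -5.52 (SE 0.781, adjusted p = 1.96e-07). S100a8 ran from 2.41 over 4.07 to 5.37 at 7 days and from -2.59 over -1.94 to 0.73 at 30 days, again with no overlap (difference -5.62, SE 0.805, adjusted p = 2.61e-07). A single bladder, replicate 7 of BAM only at 30 days, gave the highest level of both genes in its group, and the other 7 bladders lay at or below -1.29 for S100a8 and -0.60 for S100a9.

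The receptor genes Cxcr2 and Csf3r fell in BAM only as well. Cxcr2 ran from -1.60 over a median of -0.21 to 1.16 at 7 days and from -5.01 over -4.62 to -2.56 at 30 days (difference -4.14, adjusted p = 2.44e-10). Csf3r ran from -1.52 over -0.46 to 0.94 and then from -4.30 over -3.85 to -2.44 (difference -3.25, adjusted p = 6.21e-10). In neither gene did a bladder of 30 days reach the lowest of 7 days. The formyl peptide receptor gene Fpr1 was not called, with a difference of -0.39 (adjusted p = 0.562), and it was well above background on all 16 of these arrays.

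Of the granule genes 3 fell and 1 rose. Mmp8 was well above background in all 8 bladders of BAM only at 7 days and in 0 of 8 at 30 days. It fell 17.3-fold against a floor set for dim groups (adjusted p = 1.02e-10), which is not a firm lower bound. Camp ran from -1.87 over -1.02 to 0.14 at 7 days and from -3.23 over -2.89 to -2.03 at 30 days, with no overlap (difference -1.86, adjusted p = 3.29e-08). Elane was well above background in 2 of 8 bladders at 7 days and 0 at 30 days, which gave a fall of 1.76-fold against the same floor (adjusted p = 8.98e-05). That call of Elane ended with normexp, with quantile normalization and with outlier spots kept (adjusted p = 0.0659, 0.0457 and 0.0989). Ltf went the other way. It was well above background in 3 of 8 bladders at 7 days and in all 8 at 30 days, when it ran from -5.64 over -4.92 to -4.25, and it rose 3.09-fold (adjusted p = 0.0014). With normexp background correction the rise of Ltf was 0.15 on the log2 scale (adjusted p = 0.581) and was no longer called.

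In the seeded grafts, 4 of the 9 genes fell between 7 and 30 days and none rose, where 8.06% of probes were called, 1.4% lower and 6.67% higher. The median over the 9 genes was -1.51, beside 0.27 over all probes. Mmp8 fell 6.36-fold (adjusted p = 6.14e-05) and was well above background in 8 of 8 bladders at 7 days and 3 of 8 at 30 days. With normexp its difference was -0.83 (adjusted p = 0.0248) and was not called. Cxcr2 fell 3.27-fold (adjusted p = 0.00367), Csf3r 2.84-fold (adjusted p = 0.00169) and Camp 2.58-fold (adjusted p = 2.80e-05). For Camp the groups did not overlap, while for Mmp8, Cxcr2 and Csf3r 6 of 8 bladders at 30 days lay below all 8 at 7 days.

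The alarmins were not called in the seeded grafts. S100a8 ran from 1.65 over 2.15 to 3.61 at 7 days and from -1.20 over -0.47 to 2.92 at 30 days (difference -2.41, adjusted p = 0.0221). S100a9 ran from 1.94 over 2.64 to 3.89 and then from -0.87 over -0.20 to 3.67 (difference -2.21, adjusted p = 0.0292). Replicates 2 and 7 of the seeded grafts at 30 days overlapped the 7-day bladders, with S100a9 levels of 3.39 and 3.67, and the other 6 lay below every 7-day bladder. The same bladders had the highest Cxcr2 levels of the group, -1.77 and -0.97, and the highest Csf3r levels, -2.58 and -1.80. Without replicate 7 of this group, S100a8 passed the threshold (difference -2.81, adjusted p = 0.00851). Cxcr2 lost its call without replicate 3 or 7 of the 7-day group or replicate 5 or 6 of the 30-day group, with adjusted p up to 0.0147.

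Markers of other cells moved between 7 and 30 days as well. In BAM only 4 of 7 urothelial genes were higher at 30 days, Upk2 by 3.95 (summed level 1.12 to 6.69, then 5.81 to 7.06), and so was 1 of 7 smooth muscle genes, Myh11 by 1.86. Of 7 T cell genes Cd4 was higher by 1.03, a call that ended without replicate 2 or 3 of 7 days or any of replicates 1 to 5 of 30 days, and Cd8a was lower by 1.75. Of 10 macrophage genes none was called in limma (1 at an unadjusted p below 0.05). In the seeded grafts 1 urothelial, 1 smooth muscle and 1 macrophage gene were higher, and 1 macrophage and 1 T cell gene lower. Ptprc differed by 0.18 in BAM only and -0.40 in the seeded grafts and was called in neither. The part of these cells in the results for the neutrophil genes was not tested.

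**Figure D2:**
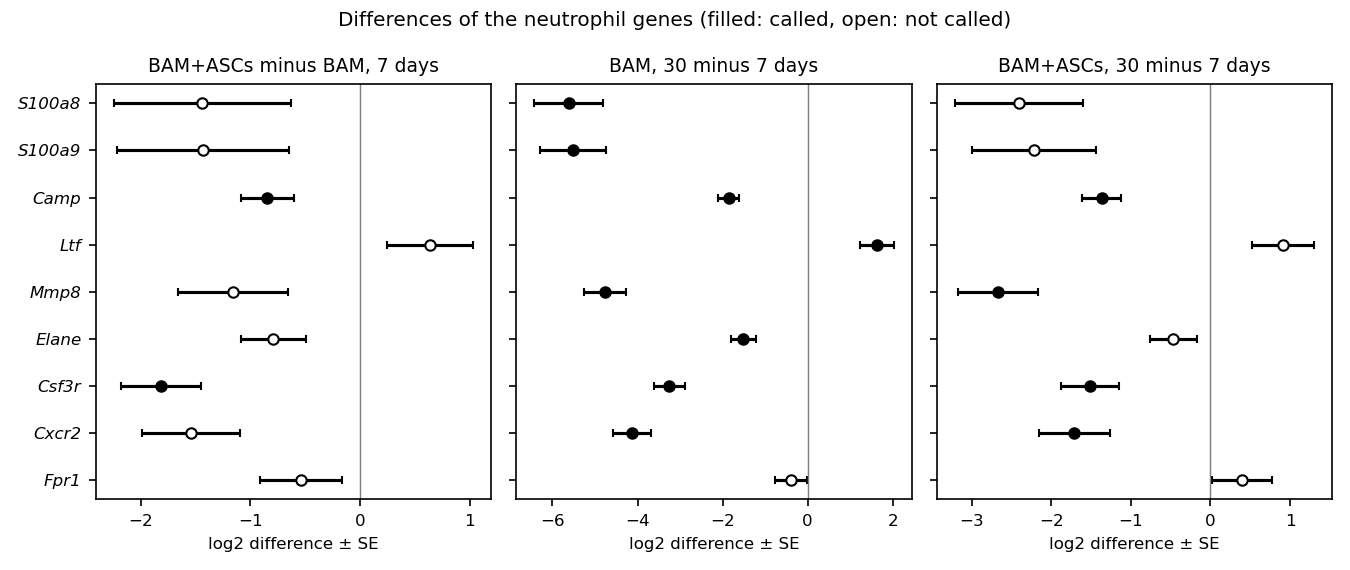
Log2 differences (horizontal axes, with SE) of 9 neutrophil genes between grafts at 7 days and between 30 and 7 days within each graft, filled where called and open where not. The largest differences are those of S100a8 and S100a9 in BAM only, -5.62 and -5.52, and Ltf is the only gene to the right of 0 in all 3 panels, though at 7 days it lies at -0.15 with normexp background correction.

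At 7 days the question was whether seeding with ASCs changed these genes at the first harvest. Csf3r and Camp were lower in the seeded grafts than in BAM only, 3.52-fold and 1.80-fold, and the other 7 genes were not called. Of all probes 7.73% were called at this day, 5.62% lower and 2.11% higher in the seeded grafts. The median difference over the 9 genes was -1.16, beside -0.16 over all probes, and 8 of the 9 means were lower in the seeded grafts. Elane was among these 8, with no seeded bladder well above background. The share of all probes with a lower mean was not counted.

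Csf3r ran from -3.13 over a median of -2.49 to -1.18 in the seeded grafts and from -1.52 over -0.46 to 0.94 in BAM only. Of the 8 seeded bladders 7 lay below all 8 of BAM only (difference -1.82, SE 0.364, adjusted p = 2.02e-04). It kept its call under each alternative run and without any 1 array, at differences from -1.98 to -1.61 without single arrays. Camp ran from -2.34 over -2.07 to -0.78 and from -1.87 over -1.02 to 0.14, with 5 of 8 seeded bladders below all of BAM only (difference -0.85, SE 0.244, adjusted p = 0.00972). The call of Camp ended on leaving out any 1 of 11 of the 16 bladders, replicates 1, 2, 3, 5, 6 and 7 of the seeded grafts and 1, 2, 3, 6 and 7 of BAM only, with adjusted p up to 0.0461.

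Cxcr2 fell just short of the threshold. It ran from -2.92 over -2.09 to -0.19 in the seeded grafts and from -1.60 over -0.21 to 1.16 in BAM only, with 5 of 8 seeded bladders below all of BAM only (difference -1.54, SE 0.448, adjusted p = 0.0105). It was called with normexp background correction (adjusted p = 0.00118) and without any 1 of 5 bladders, replicates 3 and 7 of the seeded grafts and 4, 5 and 8 of BAM only. S100a8 and S100a9 differed by -1.44 and -1.43 (adjusted p = 0.234 and 0.219), with 5 of 8 seeded bladders below all of BAM only for each. Their SDs were 0.79 and 0.77 in the seeded grafts and 1.18 and 1.19 in BAM only. Mmp8 differed by -1.16 (adjusted p = 0.103) and Fpr1 by -0.54 (adjusted p = 0.360). Ltf was the 1 gene with a higher mean in the seeded grafts, by 0.64 (adjusted p = 0.288), and this sign turned with normexp background correction.

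The 7-day comparison of grafts and the 7 to 30 day comparison within BAM only share the 8 BAM only bladders of 7 days. The highest mean of S100a8, S100a9, Csf3r, Cxcr2 and Camp was in those bladders, followed by the seeded grafts at 7 days. In S100a8 and S100a9 the order went on to the seeded grafts at 30 days and BAM only at 30 days, with each step larger than the larger SD of the neighbors, and later neighbors did not differ beyond it. None of the steps larger than the SD was called in limma for these genes, and such a gap is not a test. For Fpr1 no neighbors in the order of the 8 groups differed beyond their SD.

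Markers of other cells moved at 7 days too. Of 7 urothelial genes 5 (Upk1a, Upk1b, Upk2, Upk3a and Krt7) were higher in the seeded grafts, Upk2 by 2.87 on the log2 scale. All 5 calls ended with the 16 arrays of the day alone, and that of Krt7 also without replicate 7 of BAM only (adjusted p = 0.0173). Their summed level ran from 5.28 to 7.21 in the seeded grafts and from 1.12 to 6.69 in BAM only, with 6 of the 7 well above background in all 8 bladders of each group. Of 10 macrophage genes none was called (2 at an unadjusted p below 0.05), and their summed level ran from 6.06 to 6.68 and from 6.19 to 7.19. Of 7 T cell genes none was called either (1 at an unadjusted p below 0.05). The pan-leukocyte gene Ptprc ran from 1.69 to 2.17 in the seeded grafts and from 1.95 to 2.85 in BAM only, and was not called. The part of these cells in the differences of the neutrophil genes was not tested.

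Of 14 other granule genes, 3 were lower and 3 higher in the seeded grafts at 7 days. Lcn2, which encodes the iron-scavenging lipocalin of specific granules and of inflamed epithelium, differed most, with a mean of -2.15 ± 2.09 in the seeded grafts and 2.31 ± 1.88 in BAM only (SD, n = 8, difference -4.45, adjusted p = 1.82e-05 in limma). Hp, haptoglobin, stood at -1.87 ± 1.44 and 1.34 ± 1.05 (difference -3.22, adjusted p = 2.96e-06). Pglyrp1, a peptidoglycan-binding granule protein, differed by -1.12 (adjusted p = 0.00196). For Lcn2 and Hp 7 of 8 seeded bladders lay below all 8 of BAM only, and both calls held under all 9 alternatives and without any 1 array. The call of Pglyrp1 ended without replicate 2 of BAM only and with the 16 arrays of the day alone.

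The 3 genes of the granule list that were higher in the seeded grafts all encode alpha-defensins, a family of small antimicrobial peptides that includes some of azurophil granules. Np4 stood at -1.59 ± 1.64 in the seeded grafts and -4.17 ± 1.53 in BAM only (SD, n = 8, 5.97-fold, adjusted p = 4.06e-04 in limma). Defa5 ran from -4.08 over -0.78 to 0.72 and from -8.03 over -4.63 to -0.98 (8.70-fold, adjusted p = 3.58e-04). RatNP-3b was 3.67-fold higher (adjusted p = 0.0026), and its call ended without replicate 4 or 8 of the seeded grafts and with normexp. For Np4 and Defa5 5 of 8 seeded bladders lay above all 8 of BAM only. Fitted on the 16 arrays of the day alone, none of the 3 was called. These probes address closely related genes and can share RNA. Over the 16 bladders of 7 days, and after removing group means, Np4 followed Defa5 (r = 0.966) and RatNP-3b (r = 0.954). With the members compared, r of Np4 ran from -0.336 for Cxcr2 to 0.386 for Camp, among them -0.331 for Csf3r, -0.105 for S100a9 and 0.241 for Ltf. Lcn2 followed Cxcr2 (r = 0.808) and Pglyrp1 followed S100a8 (r = 0.957). These are descriptions over bladders that share slides within a group.

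**Figure D3:**
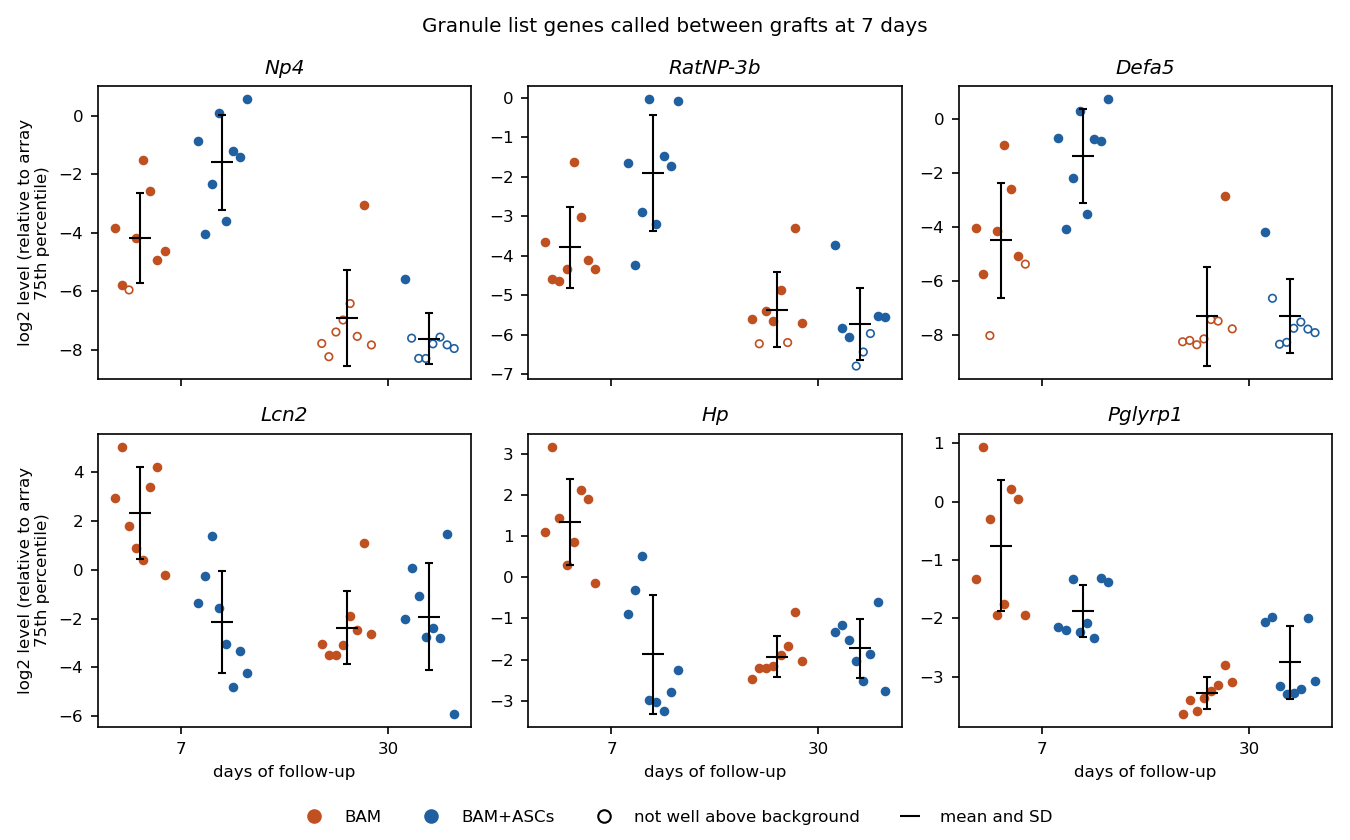
Log2 level (vertical axes, relative to the 75th percentile of the array) of the 6 granule genes called between grafts at 7 days, in 32 bladders at 7 and 30 days (horizontal axes), for BAM only (orange) and BAM+ASCs (blue), with mean and SD and open circles for arrays not well above background. Np4, RatNP-3b and Defa5 lie higher in BAM+ASCs at 7 days, and Lcn2, Hp and Pglyrp1 lie higher in BAM only.

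Between 7 and 30 days 7 of the 14 granule genes fell in BAM only and 5 in the seeded grafts, and none rose. The defensin genes Np4 and Defa5 fell by 6.03 and 5.93 on the log2 scale in the seeded grafts (adjusted p = 6.71e-13 and 4.49e-10) and were well above background in 1 of 8 bladders at 30 days, so that these sizes rest on background. With normexp both were still called, at -2.84 and -2.95. Lcn2 and Hp fell by 4.68 and 3.28 in BAM only (adjusted p = 4.48e-06 and 1.11e-06), while in the seeded grafts their differences were 0.22 and 0.15 (adjusted p = 0.841 and 0.834). The test of the difference between days gave 4.90 for Lcn2 (adjusted p = 0.00572), 3.43 for Hp (adjusted p = 0.00342), 1.65 for Pglyrp1 (adjusted p = 0.00829) and -3.29 for Np4 (adjusted p = 0.00859). Np4 was well above background in 1 of 8 bladders of each graft at 30 days, and its value was -1.78 with normexp. Of all probes 0.985% were called in that test, 0.886% higher and 0.0988% lower. The call of Hp held without any 1 of the 32 arrays and under all 8 alternatives. The call of Lcn2 ended with quantile normalization, that of Pglyrp1 with quantile normalization, the percentile over detected probes and series matrix values, and that of Np4 with normexp, the percentile over detected probes and series matrix values.

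The other 3 calls of that test ended without single arrays. That of Lcn2 ended on leaving out any 1 of 11 arrays, replicates 6, 7 and 8 of the seeded grafts and 6 and 7 of BAM only at 7 days, and replicates 2 and 7 of the seeded grafts and 1 to 4 of BAM only at 30 days (adjusted p up to 0.0154). That of Np4 ended for 19 arrays, replicates 1, 4, 6, 7 and 8 of the seeded grafts and 2, 3, 7 and 8 of BAM only at 7 days, and replicates 2, 3, 4, 6, 7 and 8 of the seeded grafts and 3, 4, 5 and 7 of BAM only at 30 days (adjusted p up to 0.0205). That of Pglyrp1 ended for 20 arrays, replicates 1, 2, 4, 5, 6 and 8 of the seeded grafts and 2, 3, 6 and 7 of BAM only at 7 days, and replicates 1, 2 and 7 of the seeded grafts and all but replicate 7 of BAM only at 30 days (adjusted p up to 0.0218).

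Among the 9 neutrophil genes none was called in that test of the graft effect between 7 and 30 days by limma, and 6 had an unadjusted p below 0.05, all higher at 30 days. The share of all probes at such an unadjusted p was not counted. Cxcr2 gave 2.43 (adjusted p = 0.0171), Csf3r 1.75 (adjusted p = 0.0330), S100a9 3.30 (adjusted p = 0.0570) and S100a8 3.21 (adjusted p = 0.0711). Plain analysis of variance called none either. Leaving out replicate 3 of the seeded grafts at 7 days, replicate 6 of the seeded grafts at 30 days or replicate 7 of BAM only at 30 days brought Cxcr2 past the threshold, with adjusted p from 0.00633 to 0.00988.

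Genes of neutrophil attractants and adhesion molecules made up another list. In BAM only 9 of 13 fell between 7 and 30 days, among them Cxcl6 by 3.73, Cxcl2 by 3.30, Il17a by 2.53 and Cxcl1 by 2.49 on the log2 scale, and none rose. Cxcl1, Cxcl2 and Cxcl6 encode chemokines that bind CXCR2, and Il17a encodes a cytokine that raises their production. In the seeded grafts 1 of the 13 fell, Cxcl2 by 2.76 (adjusted p = 0.00159). The medians over the list were -1.81 and -0.12, beside all-probe medians of -0.06 and 0.27. At 7 days all 13 means were lower in the seeded grafts, with a median of -1.02 beside -0.16 over all probes. Of these 1 was called, the interleukin gene Il6 (difference -2.20, adjusted p = 0.00103). Il6 was well above background in 2 of 8 seeded bladders and 8 of 8 of BAM only, and its call ended with the series matrix values and with the 16 arrays of the day alone.

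A further list held other surface receptors of neutrophils. Of 16 receptor genes 4 fell from 7 to 30 days in BAM only, among them the decoy receptor gene Il1r2 by 4.21 and the leukotriene receptor gene Ltb4r by 3.35. In the seeded grafts 2 fell, Il1r2 by 2.21 and Trem1 by 1.58. At 7 days the bacterial lipoprotein receptor gene Tlr2 was lower in the seeded grafts by 1.03 (adjusted p = 0.00158), the only 1 of the 16. The fall of Tlr2 from 7 to 30 days in BAM only, by 0.83, ended without any 1 of 14 of the 16 arrays, all but replicates 4 and 8 of 7 days. None of 5 genes of the phagocyte oxidase was called at 7 days, at 30 days or between them in either graft, with 1, 4, 1 and 3 of 5 at an unadjusted p below 0.05. Among 5 genes of granulocytic transcription factors none was called in those comparisons, with 1, 1, 2 and 0 of 5 at an unadjusted p below 0.05.

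At 30 days, none of the 9 neutrophil genes differed between grafts by the call, and 1.67% of probes did, 1.2% higher and 0.474% lower in the seeded grafts. S100a8 and S100a9 had unadjusted p below 0.05, and plain analysis of variance called 0. S100a9 differed by 1.87 (adjusted p = 0.119), S100a8 by 1.77 (adjusted p = 0.152) and Cxcr2 by 0.89 (adjusted p = 0.198), with 2 of 8 seeded bladders above all 8 of BAM only for each. Csf3r differed by -0.07 and Camp by -0.35. At an unadjusted p below 0.05 in limma, 9 of 16 receptor genes were lower in the seeded grafts and 1 higher, and 7 of 10 macrophage genes were lower and 1 higher. Also lower at that p were 4 of 5 oxidase and 4 of 7 T cell genes, with none of those lists higher. The share of all probes at that p was not counted. Ptprc differed by -0.98. None of these genes was called, and the part of other cells in the differences of the neutrophil genes was not tested. Of the attractants, the platelet chemokine gene Ppbp was higher in the seeded grafts by 1.48 (adjusted p = 0.00169), with no overlap of the groups and 1 of 8 bladders of BAM only well above background, and the adhesion molecule gene Icam1 was lower by 0.85 (adjusted p = 0.00444). The call of Icam1 ended without replicate 6 or 8 of the seeded grafts or 1, 2 or 4 of BAM only, and with the arrays of the day alone. Ppbp lost its call with normexp, with quantile normalization and with the arrays of the day alone, where its difference came down to 0.40 at the lowest.

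The later days were limited by background. From 30 to 90 days S100a8 fell 15.1-fold (adjusted p = 6.23e-05) and S100a9 13.4-fold (adjusted p = 7.84e-05) in the seeded grafts, with 7 of 8 bladders at 90 days below all 8 at 30 days. At 90 days S100a8 was well above background in 3 of 8 bladders and S100a9 in 4 of 8, and with normexp both were still called, at log2 differences of -2.56 and -2.69. Cxcr2 fell 4.29-fold against the floor set for dim groups (adjusted p = 9.06e-05), well above background in 8 of 8 bladders and then 0 of 8. In replicate 8 at 90 days Fpr1, at -4.22, was not well above background while Csf3r, at -4.30, was. The fold of Cxcr2 is thus not a firm lower bound. Camp fell 1.79-fold (adjusted p = 0.00349) with no overlap. In this comparison 28.1% of probes were called, 10.3% lower and 17.8% higher, and the median over the 9 genes was -0.98 beside 0.11 over all probes. Elane also passed the test, as higher, but was not well above background in either group and has no fold. With normexp background correction the calls of Camp and Cxcr2 ended (differences -0.16 and -0.47), and with quantile normalization that of Camp (-0.43).

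Leukocyte and tissue markers moved in the same comparison. In the seeded grafts Ptprc fell by 1.92, 3 of 10 macrophage genes fell, among them Cd68 by 2.07 and Msr1 by 1.71, and 2 of 7 T cell genes fell, Cd4 by 1.44. Of 7 smooth muscle genes 6 rose, and of 7 urothelial genes 1. The summed macrophage level of the seeded grafts ran from 5.54 to 6.64 at 30 days and from 3.70 to 5.80 at 90 days. In BAM only Ptprc fell by 2.24 over the same days, 7 of 10 macrophage genes fell and 1 rose, and 2 of 7 T cell genes fell. Of 16 receptor genes 10 fell and 2 rose in BAM only, and 11 fell and 1 rose in the seeded grafts. All 5 oxidase genes fell in BAM only and 4 in the seeded grafts. The part of these cells in the falls of the neutrophil genes was not tested.

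In BAM only, S100a8 and S100a9 were not called between 30 and 90 days (adjusted p = 0.282 and 0.330), and the difference of S100a9 was -0.88. Mmp8 and Elane passed the test there, both as higher, with 44.7% of probes called, 35.2% higher and 9.49% lower, and neither was well above background in any of these 16 bladders. The local background of the arrays was 42 to 52 at the early days and 99 to 366 at the late days. Its part in these 2 calls was not tested. The change between dates of scanning cannot be told apart from the change between days.

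At 90 days none of the 9 genes was called between grafts by limma or by plain analysis of variance, where 12.5% of probes were called, 3.88% higher and 8.6% lower, and 4 had an unadjusted p below 0.05, all lower in the seeded grafts. The share of all probes at such an unadjusted p was not counted. Cxcr2 differed by -1.31 (adjusted p = 0.0205) and Camp by -0.70 (adjusted p = 0.0230). Cxcr2 was well above background in 0 of 8 seeded bladders and 2 of 8 of BAM only, on slides with mean local backgrounds of 108 and 345. The change of the graft effect on Cxcr2 from 30 to 90 days was called, at -2.20 (SE 0.633, adjusted p = 0.00909), the only 1 of the 9 genes, with 9.99% of probes called, 3.33% higher and 6.67% lower. Its size rests on levels of 90 days that were mostly at background, and it was -0.57 with normexp. That call ended without any 1 of 19 of the 32 bladders, at adjusted p up to 0.0201, and under normexp, quantile normalization, the series matrix values and plain analysis of variance. Of the other lists at 90 days, Lyz2 (granule) was higher in the seeded grafts by 0.81, and Gfi1 (transcription factor) and Cd4 were lower by 1.26 and 1.01. The red blood cell gene Hbb and 3 of 7 smooth muscle genes were higher, Myh11 by 1.09. Each of these calls ended under some alternative, those of Lyz2, Gfi1 and Cd4 with normexp. That of Lyz2 held in 3 of 16 fits without single arrays. At the lowest under the alternatives, the differences were 0.08 for Lyz2, -0.19 for Hbb, -0.03 for Actg2 and 0.12 for Tagln. Saturated gene spots made up 0.74% to 2.20% in BAM only at 90 days and 0.57% to 0.96% in the seeded grafts. The part of saturation in these calls of bright probes was not tested.

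At 180 days none of the 9 genes was called between grafts by limma or plain analysis of variance, with 2.44% of probes called, 2.4% higher and 0.0428% lower, and 0 had an unadjusted p below 0.05. None was called by either from 90 to 180 days. In BAM only 9.39% of probes were called there, 5.21% higher and 4.17% lower, and 1 of the 9 genes had an unadjusted p below 0.05. In the seeded grafts 4.14% were called, 3.52% higher and 0.616% lower, and 2 genes had such a p. The test of the graft effect from 90 to 180 days called none of the 9 genes by either, with 1 at an unadjusted p below 0.05 and 9.79% of probes called, 5.95% higher and 3.84% lower. S100a9 ran from -3.56 over -1.90 to 0.40 in the seeded grafts and from -4.54 over -1.79 to 1.57 in BAM only, well above background in 7 and 5 of 8 bladders. Its SD of 1.28 and 1.96 was larger than the difference of the means, and the groups overlapped throughout. Fpr1 had its widest spread at this day, from -5.43 to -1.90 in BAM only.

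Some of the genes varied together from bladder to bladder. Over 64 arrays, after removing group means, S100a8 followed S100a9 (r = 0.976) and Csf3r followed Cxcr2 (r = 0.781). Within single groups r of Csf3r with Cxcr2 lay between 0.847 and 0.990 in the 4 groups of 7 and 30 days and between 0.144 and 0.599 in the 4 groups of 90 and 180 days. S100a9 followed Csf3r (r = 0.684) and Cxcr2 (r = 0.655), while Ltf ran against S100a9 (r = -0.376). Fpr1 had r = 0.275 with S100a8 over all arrays, and within groups from -0.61 in BAM only at 30 days to 0.985 in BAM only at 7 days. Groups share a slide, and many late arrays sit at background, so these values carry no test.

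**Figure D4:**
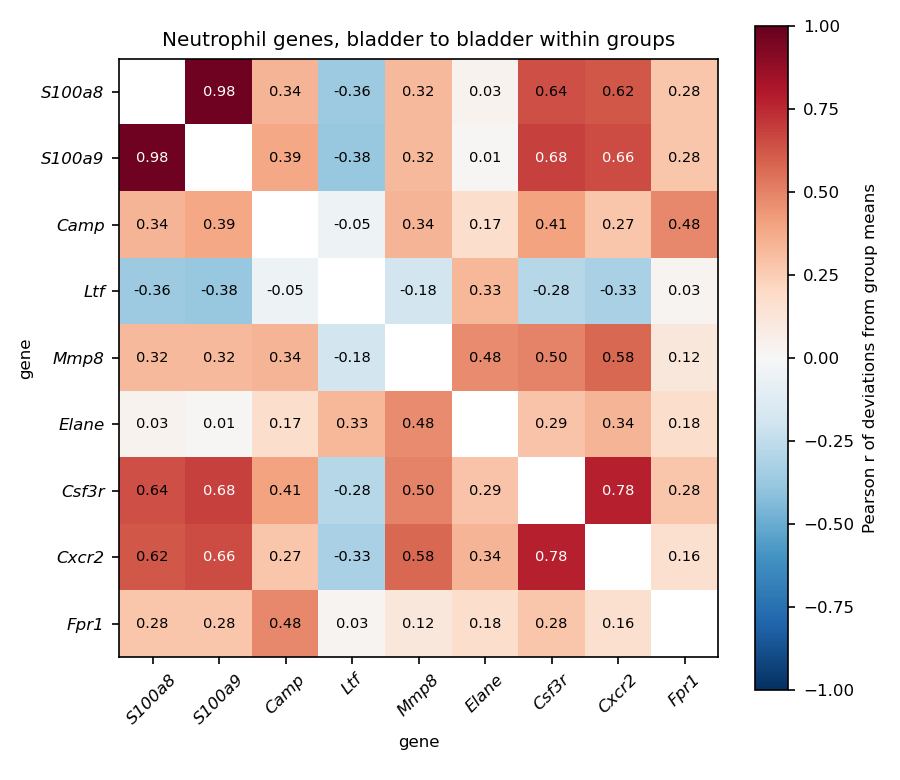
Pearson r between 9 neutrophil genes (both axes) over arrays, after the mean of each of the 8 groups was removed, with color from -1 (blue) to 1 (red). S100a8 with S100a9 gives 0.98 and Csf3r with Cxcr2 gives 0.78, and Ltf is negative with S100a8, S100a9, Csf3r and Cxcr2.

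Among 11145 genes compared over the same deviations, those most like S100a9 were S100a8, Cxcl1 (r = 0.752) and Il1b (r = 0.688), and those most like S100a8 after S100a9 were Cxcl1 (r = 0.743) and Stfa2l2 (r = 0.714). Csf3r was most like Cxcr2, Ceacam4 (r = 0.725) and Lcn2 (r = 0.721). Cxcr2 was most like Il1r2 (r = 0.803), Csf3r and Mxd1 (r = 0.740). Camp reached r = 0.515 with Lilrc2, 0.511 with Irak3 and 0.509 with Ncf1. Over all arrays Fpr1 stood apart from the other receptors, with Wt1 (r = 0.724), Ltbp2 (r = 0.698) and Bmper (r = 0.641) closest. Within BAM only at 7 days its r was 0.887 with Cxcr2 and 0.766 with Csf3r, and within the seeded grafts at 7 days -0.427 and -0.364. Over the 8 group means, S100a9 was most like S100a8 (r = 0.999), Ppic (r = 0.997) and Adamts9 (r = 0.996).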

How the data were processed

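RNA of 64 bladders was measured on single-color arrays. The authors deposited Agilent Feature Extraction output, in which gProcessedSignal is a linear intensity, corrected for background. The deposited series matrix holds the same intensity, equal within 0.01 on the log2 scale for 61 of 64 columns. Here log2 intensity minus the 75th percentile over gene spots of the array was used, without control spots and outlier spots, with spots of a probe averaged. A probe counted as well above background where at least 0.5 of its spots were. The level of a dim group in a fold against the floor was, per array, the higher of the lowest signal among probes well above background and its own. Brighter probes could still be not well above background, so these folds are not firm lower bounds.

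Probes were named through RefSeq accessions and a table of GRCr8 (18758 of 22372 with an accession). The means of all 8 groups entered 1 limma model (limma 3.58.1, R 4.3.3), which was first tested on simulated data. Python 3.11.15, numpy 2.4.6, pandas 2.3.3 and matplotlib 3.10.9 were used for the rest. The genes and lists were chosen with earlier results of these data known. All members with a probe were named, on the brightest probe, with the 3 genes most like each member. From the lists, called genes were named by size of change, up to 4 a list and comparison, but not every called gene is named. Genes singled out beyond these, among them RatNP-3b at 7 days, where more than 4 were called, were named after their values were seen. Alternatives were normexp with offset 50, quantile normalization, the percentile over detected probes, series matrix values, dim probes left out, replicate number as a block, unmoderated analysis of variance, the mean of probes, outlier spots kept, the arrays of a day alone and single arrays left out. Smaller differences of dim probes with normexp are in part built in by its offset. Arrays give no counts, so the number of bladders limits precision. A gene of the receptor list is not reported here by name.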

Additional observations from a re-analysis of the deposited data

Results flagged for a closer look

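In replicate 7 of BAM only at 30 days, 5 genes stood far above the other 7 bladders of the group by Dixon's test. The log2 levels were 0.73 for S100a8 (others -2.59 to -1.29), 1.32 for S100a9 (others -1.96 to -0.60), -2.44 for Csf3r (others -4.30 to -3.68), -2.56 for Cxcr2 (others -5.01 to -4.22) and -2.03 for Camp (others -3.23 to -2.81). All 8 bladders were well above background for these 5 genes. Without this array the number of genes called in BAM only between 7 and 30 days was 8, as with it.

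In replicate 8 of BAM only at 90 days Ltf (-3.42), Mmp8 (-3.29) and Elane (-3.45) stood above the others, and none of the 8 bladders was well above background for them. The same held for Mmp8 in replicate 6 (-4.42) and Elane in replicate 5 (-4.31) of the seeded grafts at 180 days. Camp was lowest in replicate 7 of the seeded grafts at 90 days (-4.41), where 3 of the other bladders were well above background. In all, 11 of 72 groups had such an array, 6 of them at background, and chance gives about 1 in 20 for independent groups. These groups were not independent, as several flags came from the same bladder.

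The graft effect differed between days by the test of the difference for Cxcr2 from 30 to 90 days (-2.20). It differed from 7 to 30 days for Lcn2 (4.90), Hp (3.43), Np4 (-3.29) and Pglyrp1 (1.65). From 30 to 90 days it also differed for Ltb4r (-2.73), Cxcl6 (-2.77) and Ppbp (-2.38), and these 3 calls ended with normexp and with quantile normalization, as did that of Cxcr2. Of the calls from 7 to 30 days, that of Hp held under each alternative, that of Lcn2 ended with quantile normalization, and those of Np4 and Pglyrp1 each ended under 3 alternatives.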

How the results depend on the processing

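The number of genes called at 7 days was 2. It was 4 with normexp background correction, which added Cxcr2 and Mmp8, and 1 with quantile normalization, series matrix values, the percentile over detected probes, plain analysis of variance or the 16 arrays of the day alone, with Csf3r called in each. From 30 to 90 days the number in BAM only, 2, became 0 with normexp, 1 with quantile normalization and 0 with dim probes left out, and in the seeded grafts 5 became 2 with normexp. The test of the graft effect from 7 to 30 days called 0 and, with normexp, 1. That from 30 to 90 days called 1, and 0 with normexp, quantile normalization, the series matrix values and plain analysis of variance. The sign of 3 uncalled differences turned: Ltf at 7 days to -0.15 and its graft effect from 7 to 30 days to 0.14 with normexp, and Mmp8 from 30 to 90 days in the seeded grafts to -0.014 with quantile normalization.

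Without single arrays the number called ranged from 1 to 3 at 7 days, 3 to 5 from 7 to 30 days in the seeded grafts, 5 to 6 from 30 to 90 days in the seeded grafts, and 0 to 1 at 90 days, where Camp was called without replicate 5 of BAM only (adjusted p = 0.00637). It ranged from 0 to 1 for the graft effect from 7 to 30 days and from 0 to 1 for that from 30 to 90 days. The latter call, of Cxcr2, ended without replicate 1, 2 or 7 of the seeded grafts or any but replicate 7 of BAM only at 30 days, and without replicate 1, 2, 3, 5, 7 or 8 of the seeded grafts or 4, 6 or 8 of BAM only at 90 days. In BAM only it stayed at 8 from 7 to 30 days and at 2 from 30 to 90 days.

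Replicate numbers did not pair bladders: deviations of same-numbered bladders had r above 0.1 in 3 of 8 pairs at 7 days. With the replicate number as a block 3 genes were called at 7 days, the third Cxcr2 (adjusted p = 0.00929), and the numbers called in the other 12 comparisons were as without it. Dim signal limits Elane at all days, Ltf at 7 days, Mmp8 at 30 days and all 9 genes at 90 and 180 days, where in no group were all 8 bladders well above background for any of them.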
